A study of Homo sapiens with 9 samples.

Results

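The 8 genes described here encode the proteins that sense sterols, process the sterol regulatory element-binding proteins (SREBPs) and release LDL-derived cholesterol from lysosomes: SREBF1, SREBF2, SCAP, INSIG1, INSIG2, MBTPS1, MBTPS2 and NPC1. They were chosen by symbol, 8 of the 48162 genes counted, and all 8 were among the 15776 genes tested. In the order named they lie on chromosomes 17, 22, 3, 7, 2, 16, X and 18. RNA was sequenced from SKMEL28, an established human melanoma cell line grown in DMEM with 5% FBS, in 9 libraries forming 3 groups of 3. All cells had received lentivirus carrying short hairpin RNA (shRNA) and were selected with puromycin at 1 ug/ml for 3 days. The shCont cells carried a hairpin to GFP, a sequence human cells lack. The shp16 cells carried a hairpin to p16, the cell cycle inhibitor encoded by CDKN2A. The shp16/shATR cells carried hairpins to p16 and to ATR, a kinase of the DNA damage response. Which ATR hairpin was sequenced, and whether the shp16 cells also received a control virus, are not given in the sources used here. The paper describes its mRNA values for lanosterol synthase (LSS) as 1 experiment with 3 technical replicates, without naming the libraries. Nothing in the labels says that the libraries of a group came from separate cultures. Every p-value below therefore measures only the spread between these libraries, which may be technical.

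SREBPs are made as membrane proteins of the endoplasmic reticulum (ER) and travel with their escort SCAP to the Golgi when sterols are low. There the proteases encoded by MBTPS1 and MBTPS2 cut them in turn, and the freed transcription factor enters the nucleus and turns on genes of sterol and fatty acid synthesis and of LDL uptake. When sterols are plentiful, SCAP is held in the ER by the INSIG proteins. INSIG1 and SREBF2 are themselves known SREBP target genes, so their mRNA is part of a feedback loop. NPC1 acts at the other supply of cholesterol, moving the cholesterol of endocytosed LDL out of the lysosome.

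Library totals ran from 17314662 to 23588174 counts, and the lowest count of any of the 8 genes in any library was 518, for INSIG1 in shCont replicate 2. The hairpin targets were checked first. CDKN2A, whose row also covers the transcript of the ARF protein, was at 162, 113 and 103 CPM (counts scaled to a common library size with edgeR's TMM factors) in shCont, 78.1, 93.5 and 99.9 in shp16, and 82.6, 90.0 and 82.4 in shp16/shATR. All shp16 libraries were below all shCont libraries, but the log2 fold change of -0.48 (SE 0.163) had an adjusted p of 0.0723 by edgeR's quasi-likelihood test, and that of shp16/shATR against shCont was -0.57 (adjusted p 0.0263). ATR was at 45.9, 93.5 and 96.4 CPM in shCont, 93.5, 83.4 and 85.6 in shp16, and 39.9, 40.0 and 41.0 in shp16/shATR, a log2 fold change of -1.12 against shp16 (adjusted p 0.0128 in edgeR). For ATR, shCont replicate 1 lay nearer to the shp16/shATR libraries than to its group mates. For CDKN2A, shCont replicate 1 was the highest library and raised the shCont mean, and no fold change without it is given here. All 8 melanocyte markers were present, PMEL at 3255 CPM or more in every library. Of 7 markers of other cell types, PTPRC and CD3E were at 0, and the 7 together summed to 31.5 to 47.7 CPM, of which LUM gave 26.0 to 42.8. The first shCont library and the first shp16 library stood apart from their groups. Their counts differed from those of their group mates by 61.1 and 74.5, and by 33.7 and 33.0, times the sampling variance, against 4.75 and 1.92 for the pairs that remained and 2.82 to 8.72 within shp16/shATR. Relative to its group mates, shCont replicate 1 was also higher the higher the GC content of the transcript (Spearman rho 0.467 across 15306 genes, which are not independent replicates), where shCont replicates 2 and 3 had rho of -0.296 and -0.464, each against mates that include replicate 1, and the libraries of shp16 and shp16/shATR had rho between -0.0812 and 0.106. Results for the 8 genes that rest on these libraries are given with and without them, a choice made after seeing the data.

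The promoters of 4 of the genes are shown, those of the members with the largest rises, SREBF2 and INSIG1, and those of their paralogs SREBF1 and INSIG2. RefSeq windows of 250 bases before to 50 bases after a transcript start (GRCh38.p14) were matched for 8 of 8 members. Capitals mark 4 motifs searched on both strands: the sterol regulatory element TCACNCCAC, the CCAAT box, the GC box GGGCGG and the E-box CACGTG. Each sequence reads 5′ to 3′ on the strand of its gene, and for INSIG2 the first of its windows is given.
SREBF2, chr22:41832855-41833154, plus strand: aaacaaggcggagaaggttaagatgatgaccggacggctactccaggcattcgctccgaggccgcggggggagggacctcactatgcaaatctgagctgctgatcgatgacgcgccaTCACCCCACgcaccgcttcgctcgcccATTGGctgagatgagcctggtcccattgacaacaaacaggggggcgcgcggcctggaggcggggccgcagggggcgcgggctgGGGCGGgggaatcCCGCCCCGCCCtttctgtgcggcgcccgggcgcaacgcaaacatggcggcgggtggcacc
INSIG1, chr7:155297628-155297927, plus strand: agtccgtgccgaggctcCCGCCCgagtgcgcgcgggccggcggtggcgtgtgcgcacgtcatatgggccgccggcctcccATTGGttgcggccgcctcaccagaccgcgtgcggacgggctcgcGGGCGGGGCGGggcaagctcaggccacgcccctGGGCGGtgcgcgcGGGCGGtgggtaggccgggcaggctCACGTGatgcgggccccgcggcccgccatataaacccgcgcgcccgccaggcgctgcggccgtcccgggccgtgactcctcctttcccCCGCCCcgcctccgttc
SREBF1, chr17:17836937-17837236, minus strand: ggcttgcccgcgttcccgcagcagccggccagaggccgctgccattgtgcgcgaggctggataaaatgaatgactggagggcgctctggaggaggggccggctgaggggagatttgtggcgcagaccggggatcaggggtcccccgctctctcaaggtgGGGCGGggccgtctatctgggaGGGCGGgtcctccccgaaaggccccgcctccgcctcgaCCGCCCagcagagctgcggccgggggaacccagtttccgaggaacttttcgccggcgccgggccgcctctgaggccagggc
INSIG2, chr2:118088221-118088520, plus strand: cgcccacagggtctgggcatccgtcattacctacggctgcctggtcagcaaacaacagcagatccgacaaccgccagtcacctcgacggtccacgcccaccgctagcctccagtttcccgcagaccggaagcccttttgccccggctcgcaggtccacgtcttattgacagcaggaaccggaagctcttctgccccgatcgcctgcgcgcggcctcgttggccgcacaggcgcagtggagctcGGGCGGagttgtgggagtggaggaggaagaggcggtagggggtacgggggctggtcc
Of the 9 windows of the 8 members, that of SREBF2 held a sterol regulatory element, TCACCCCAC, which begins 133 bases before the start. The motif occurs in 1.13% of the 35116 RefSeq promoter windows. SREBF2 and INSIG1 also held a CCAAT box, read as ATTGG on this strand, and no other member window did. That motif is in 34.6% of all windows. An E-box stood in the windows of INSIG1 and SCAP, against 7.26% of all windows. GC boxes, in 45% of windows, were present in every window shown, and neighbouring ones share a base in SREBF2 and in INSIG1. These matches are descriptions of letters in a window and no measure of binding.

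INSIG1 mRNA rose with p16 knockdown and again with ATR knockdown, SREBF2 mRNA rose with p16 knockdown, and the remaining 6 genes had log2 fold changes between -0.39 and 0.30 in the 3 comparisons. With p16 knocked down, 2 of the 8 genes rose (SREBF2 and INSIG1), none fell and 6 did not pass an adjusted p of 0.05. Over all genes tested 14.8% passed in that comparison and 7.23% passed as higher. With ATR knocked down as well, 1 of the 8 rose against shp16 (INSIG1), where 6.22% of all genes passed and 2.73% passed as higher. Between shp16/shATR and shCont, 3 of the 8 rose (INSIG1, SREBF2 and MBTPS1), where 23.6% of all genes passed and 10.9% passed as higher. The median log2 fold change of the 8 genes was 0.07, 0.08 and 0.21 in these comparisons, beside -0.02, 0.00 and -0.02 over all genes tested. Libraries of the groups compared did not overlap for 2, 4 and 5 of the 8 genes, beside 33.6%, 37.7% and 41.5% of all genes. In bulk RNA a larger share of expressing cells and more RNA per cell cannot be told apart. With 3 libraries against 3 an exact permutation test cannot go below a two-sided p of 0.1, so calls are those of edgeR across all genes.

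**Figure D1:**
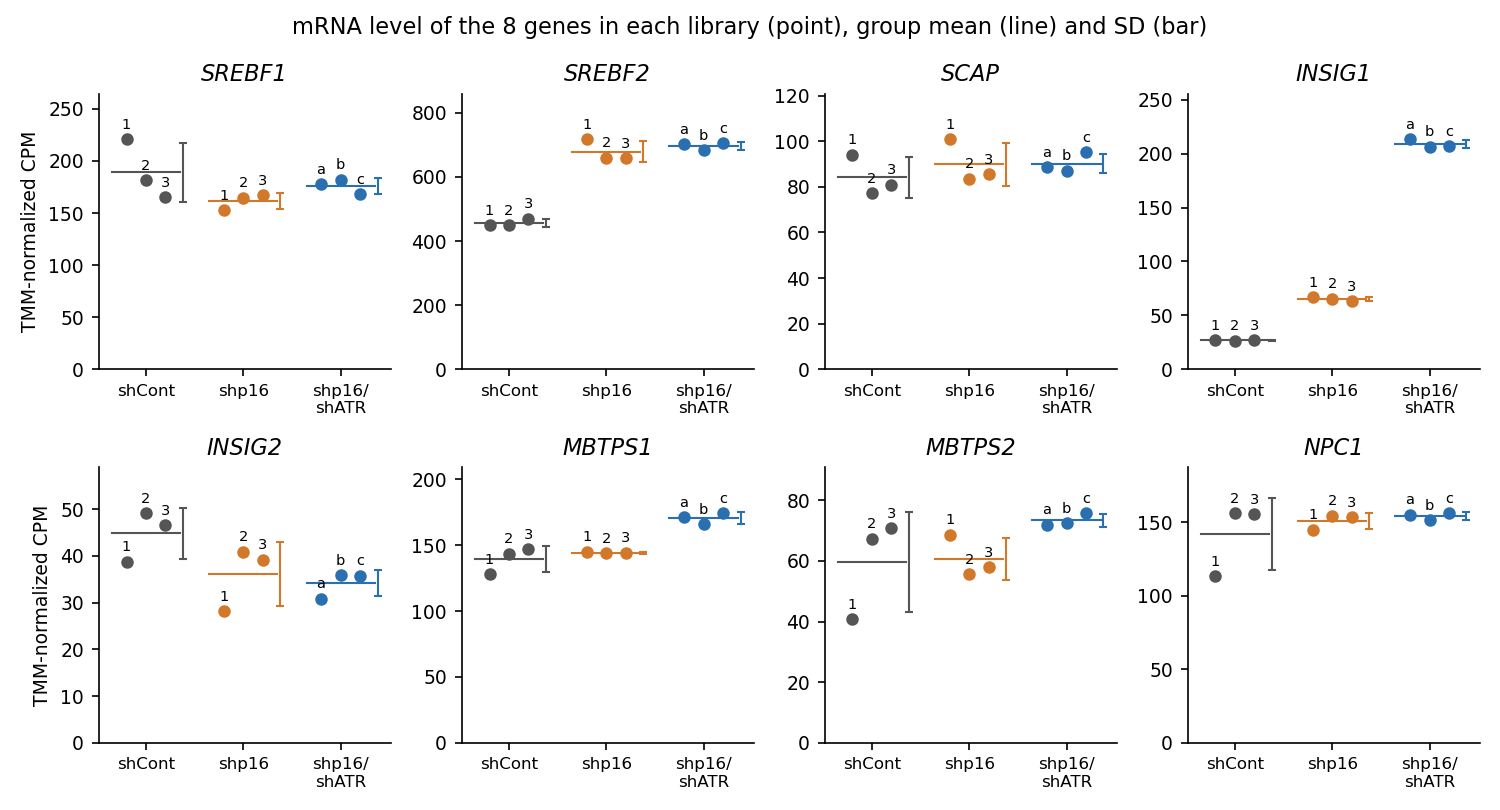
Level of each of the 8 genes in TMM-normalized CPM (vertical axes, from 0) in the 9 libraries, with points numbered by replicate (lettered for shp16/shATR), a line at the mean and a bar for the SD of 3 libraries. INSIG1 steps up from about 26.8 to 65.1 and 209 CPM with no overlap, SREBF2 steps up once, and shCont replicate 1 lies away from its group for NPC1 and MBTPS2.

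The genes of the SREBPs themselves behaved differently from each other. SREBF2, which encodes the SREBP that mainly drives cholesterol synthesis, was at 450, 450 and 469 CPM in shCont, 717, 659 and 659 in shp16, and 701, 683 and 706 in shp16/shATR. Every shp16 and every shp16/shATR library was above every shCont library, and the ranges of the latter groups overlapped. The rise was 1.49-fold in shp16 against shCont (log2 fold change 0.57, SE 0.0966, adjusted p 0.00236 in edgeR) and 1.53-fold in shp16/shATR against shCont (0.61, adjusted p 0.000936). Adding ATR knockdown to p16 knockdown gave a log2 fold change of 0.04 (95% interval -0.17 to 0.25, adjusted p 0.875). Without the first shCont and first shp16 libraries these values were 0.52, 0.59 and 0.07. A transcript on the opposite strand within SREBF2, RP5-821D11.7, had at most 277 counts in a library.

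SREBF1, which encodes the SREBP-1 forms that mainly drive fatty acid synthesis, was at 221, 182 and 165 CPM in shCont, 153, 165 and 167 in shp16, and 178, 182 and 168 in shp16/shATR. The shCont range was the widest, held up by replicate 1, which was 0.35 above the mean of the other shCont libraries on the log2 scale. The gene did not pass in any comparison: the log2 fold change was -0.23 in shp16 against shCont (95% interval -0.49 to 0.03, adjusted p 0.221), 0.12 in shp16/shATR against shp16 (-0.13 to 0.38, adjusted p 0.627) and -0.10 in shp16/shATR against shCont (-0.36 to 0.15, adjusted p 0.565), all by edgeR. Leaving out shCont replicate 1 gave -0.11, 0.13 and 0.02. SREBF1 has one of the higher transcript GC contents (percentile 93.3 of the genes tested). Its row overlaps RAI1 on the opposite strand, which had up to 6423 counts in a library, and whether counting used strand is not given in the sources used here.

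SCAP, the sterol-sensing escort, was among the steadiest. Its libraries were at 94.1, 77.3 and 81.0 CPM in shCont, 101, 83.5 and 85.6 in shp16, and 88.6, 87.0 and 95.1 in shp16/shATR. All groups overlapped. The log2 fold change was 0.10 in shp16 against shCont (95% interval -0.16 to 0.35), 0.00 in shp16/shATR against shp16 (-0.25 to 0.26) and 0.10 in shp16/shATR against shCont (-0.15 to 0.35), with adjusted p of 0.623, 0.99 and 0.574 in edgeR. The highest values of shCont and shp16 both came from the libraries that stand apart. Without both of them the last comparison reached 0.18 (adjusted p 0.0192), while the others were 0.09 and 0.09 (adjusted p 0.302 and 0.309).

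INSIG1 gave the largest rise of the 8 genes in every comparison. This gene encodes the ER protein that retains SCAP. It was at 27.1, 26.6 and 26.8 CPM in shCont, 67.0, 65.3 and 63.0 in shp16, and 213, 206 and 207 in shp16/shATR. The groups did not overlap, and within a group the SD was at most 3.66 CPM. The rise was 2.42-fold in shp16 against shCont (log2 fold change 1.28, SE 0.0929, adjusted p 5.78e-06 in edgeR). It was 3.21-fold in shp16/shATR against shp16 (1.68, SE 0.0921, adjusted p 9.72e-06) and 7.78-fold in shp16/shATR against shCont (2.96, SE 0.0972, adjusted p 2.21e-08). Ranked by log2 fold change among the 15776 genes, INSIG1 stood 345th, 58th and 80th in the same order, and 39th among the genes called higher in shp16/shATR against shp16. Without the first shCont and first shp16 libraries the values were 1.26, 1.70 and 2.96. shCont replicate 1 differed from its group by 0.02 for this gene and shp16 replicate 1 by 0.06, where the median absolute difference over all genes was 0.40 and 0.22.

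INSIG2, the second retention protein, did not rise with it. Its libraries were at 38.7, 49.2 and 46.6 CPM in shCont, 28.2, 40.8 and 39.2 in shp16, and 30.9, 35.9 and 35.8 in shp16/shATR. The shp16/shATR libraries were all below shCont, while shCont and shp16 overlapped because shCont replicate 1 lay below shp16 replicates 2 and 3. The first library was the lowest in both of these groups, and library a was the lowest in shp16/shATR. The log2 fold change was -0.31 in shp16 against shCont (95% interval -0.64 to 0.02, adjusted p 0.191), -0.08 in shp16/shATR against shp16 (-0.41 to 0.25, adjusted p 0.836) and -0.39 in shp16/shATR against shCont (-0.72 to -0.06, adjusted p 0.0848), in edgeR. The calls depended on the libraries that stand apart: without both, INSIG2 was lower in all 3 comparisons, by -0.26, -0.23 and -0.49 (adjusted p 0.0217, 0.0327 and 3.32e-05). Without shCont replicate 1 alone it was at -0.41 and -0.49 against shCont (adjusted p 0.0395 and 0.0145), and without shp16 replicate 1 alone shp16/shATR against shCont was at -0.39 (adjusted p 0.0394). INSIG2 has one of the lowest GC contents (percentile 2.37), and the part of GC content in these values was not tested beyond the removal of its trend, which left all 3 comparisons uncalled.

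**Figure D2:**
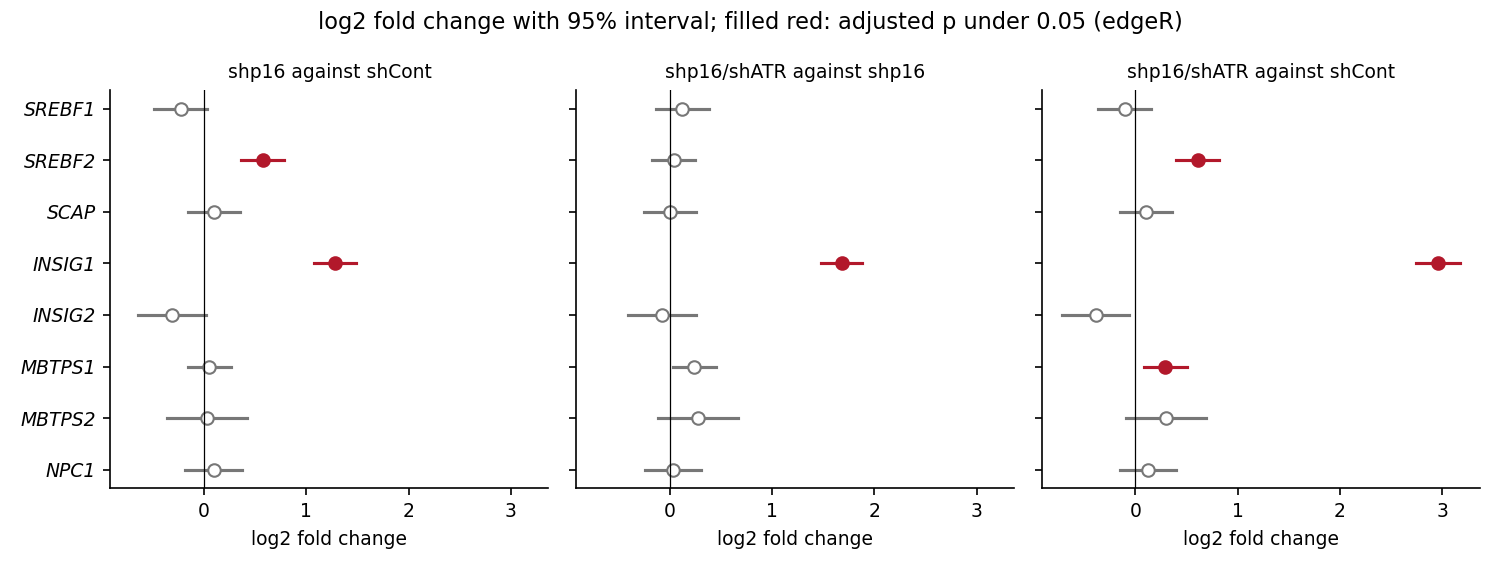
Fitted log2 fold change (horizontal axes) of the 8 genes in the 3 comparisons, with 95% intervals from edgeR, filled red where the adjusted p is under 0.05. INSIG1 is called in all 3 comparisons and SREBF2 in both comparisons with shCont. The interval of MBTPS1 lies just above 0 in shp16/shATR against shCont.

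The Golgi proteases showed small differences. MBTPS1, the site-1 protease that makes the first cut, was at 128, 143 and 147 CPM in shCont, 145, 144 and 144 in shp16, and 171, 166 and 174 in shp16/shATR. All shp16/shATR libraries were above all others. The log2 fold change was 0.05 in shp16 against shCont (95% interval -0.16 to 0.26, adjusted p 0.768), 0.24 in shp16/shATR against shp16 (0.03 to 0.45, adjusted p 0.178) and 0.29 in shp16/shATR against shCont (0.08 to 0.50, adjusted p 0.0457), in edgeR. That last call was held by 8 of 20 alternatives, with adjusted p from 0.00137 to 0.166. It was lost when any library other than the first of shCont and shp16 was left out (adjusted p 0.0523 to 0.151). Without the first shCont and first shp16 libraries the rise was 0.22 (adjusted p 0.00137), and that against shp16 was 0.24 (adjusted p 0.00169). Without shCont replicate 1 alone the rise against shp16 was 0.24 (adjusted p 0.0122).

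MBTPS2, the site-2 protease that makes the second cut, was at 40.7, 67.3 and 70.9 CPM in shCont, 68.6, 55.6 and 57.9 in shp16, and 71.9, 72.5 and 75.8 in shp16/shATR. The value of shCont replicate 1 was 0.76 below the mean of its group mates on the log2 scale, the largest such gap among the 8 genes. With all libraries the log2 fold change was 0.03 (95% interval -0.36 to 0.42, adjusted p 0.942), 0.27 (-0.12 to 0.66, adjusted p 0.439) and 0.30 (-0.09 to 0.69, adjusted p 0.255) in edgeR, in the order of comparisons used for MBTPS1. Without the first shCont and first shp16 libraries these became -0.29 (adjusted p 0.00273), 0.36 (adjusted p 0.000177) and 0.08 (adjusted p 0.309). The direction of the first therefore turned with the libraries used. Without shCont replicate 1 alone they were -0.19, 0.28 and 0.08, and the second was called (adjusted p 0.0341). MBTPS2 has low GC content (percentile 2.98) and overlaps YY2 on the same strand, which had at most 44 counts. In shp16/shATR against shCont, 1 of 20 alternatives called it, as higher (adjusted p 0.0193 in edgeR). That was the removal of trends with GC content and gene length, a choice made after seeing the data.

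NPC1, the lysosomal cholesterol exporter and the one member on the LDL route, was level across groups. It was at 113, 156 and 156 CPM in shCont, 145, 155 and 153 in shp16, and 155, 152 and 156 in shp16/shATR. Of the libraries, 8 lay between 145 and 156 CPM, and shCont replicate 1 lay below them. The log2 fold change was 0.09 in shp16 against shCont (95% interval -0.18 to 0.37), 0.03 in shp16/shATR against shp16 (-0.24 to 0.31) and 0.12 in shp16/shATR against shCont (-0.15 to 0.40), with adjusted p of 0.673, 0.925 and 0.521 in edgeR. Without the first shCont and first shp16 libraries they were -0.02, -0.0035 and -0.02. NPC1 overlaps C18orf8 on the opposite strand, which had up to 550 counts.

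With shCont replicate 1 left out, 3, 3 and 4 of the 8 genes were called in the 3 comparisons, where 25.9%, 19.9% and 33.3% of all genes passed. With shp16 replicate 1 left out as well, 4, 4 and 5 were called, where 32.7%, 26.7% and 44.3% of all genes passed. In that last fit the calls among the 8 were 2 higher and 2 lower, 3 higher and 1 lower, and 4 higher and 1 lower. edgeR's biological coefficient of variation, a measure of the spread within groups, fell from 0.149 to 0.0903 and 0.0553 as these libraries were removed.

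Levels were compared between genes in FPKM, which divides by gene length. In shCont, SREBF2 was the highest at 80.2 ± 3.92 FPKM (SD, n = 3), followed by SREBF1 at 40.6 ± 4.86, MBTPS1 at 32.2 ± 3.42, NPC1 at 27.7 ± 5.70, SCAP at 19.1 ± 1.24, INSIG2 at 14.1 ± 2.23, MBTPS2 at 13.5 ± 4.09 and INSIG1 at 8.93 ± 0.274. The ranges of MBTPS1 and NPC1, of INSIG2 and MBTPS2, and of MBTPS2 and INSIG1 overlapped. INSIG1 was thus the lowest of the 8 by mean in shCont, above 60.4% of the genes tested. In shp16 it was 5th, at 21.5 ± 0.682 FPKM, overlapping SCAP at 20.3 ± 1.06. In shp16/shATR it was 2nd, at 69.4 ± 1.66 FPKM and above 94.4% of genes, between SREBF2 at 122 ± 0.920 and MBTPS1 at 39.3 ± 0.398, and neither neighbour overlapped it. The remaining genes in shp16/shATR were SREBF1 at 37.8 ± 2.17, which overlapped MBTPS1, NPC1 at 29.9 ± 0.192, SCAP at 20.5 ± 0.644, MBTPS2 at 16.5 ± 0.284 and INSIG2 at 10.7 ± 0.906, none of which overlapped the next.

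**Figure D3:**
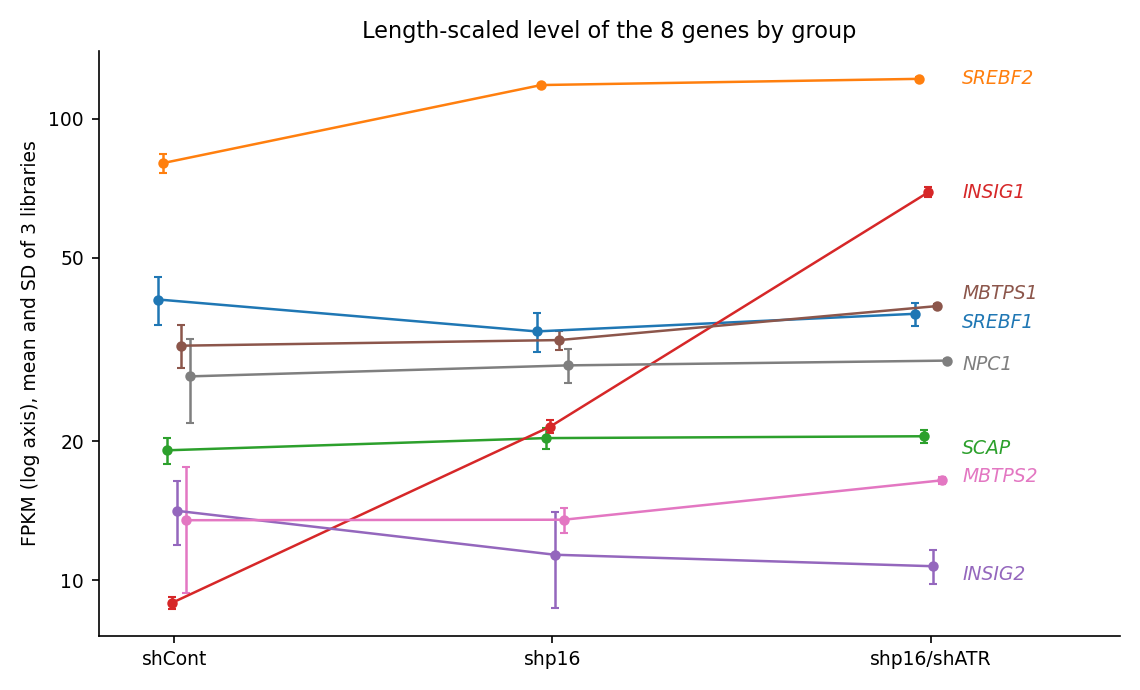
Mean FPKM of the 8 genes (vertical log axis) in shCont, shp16 and shp16/shATR, with bars for the SD of 3 libraries. The line of INSIG1 crosses those of 6 other genes, from 8.93 to 69.4 FPKM, while SREBF2 stays on top at 80.2 to 122 FPKM.

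The balance within each pair of paralogs shifted. SREBF2 to SREBF1 was 1.67, 2.02 and 2.32 in the shCont libraries, 3.83, 3.27 and 3.23 in shp16, and 3.22, 3.06 and 3.43 in shp16/shATR, as a ratio of FPKM. The means were 2.00 ± 0.329, 3.44 ± 0.336 and 3.24 ± 0.185 (SD, n = 3). The shCont libraries were all below the others, and the ranges of shp16 and shp16/shATR overlapped. INSIG1 to INSIG2 was 0.740, 0.573 and 0.610 in shCont, 2.52, 1.69 and 1.70 in shp16, and 7.31, 6.09 and 6.13 in shp16/shATR, with means of 0.641 ± 0.0876, 1.97 ± 0.475 and 6.51 ± 0.693. INSIG2 was thus the more abundant transcript of the pair per length in every shCont library, and INSIG1 in every library of the other groups.

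**Figure D4:**
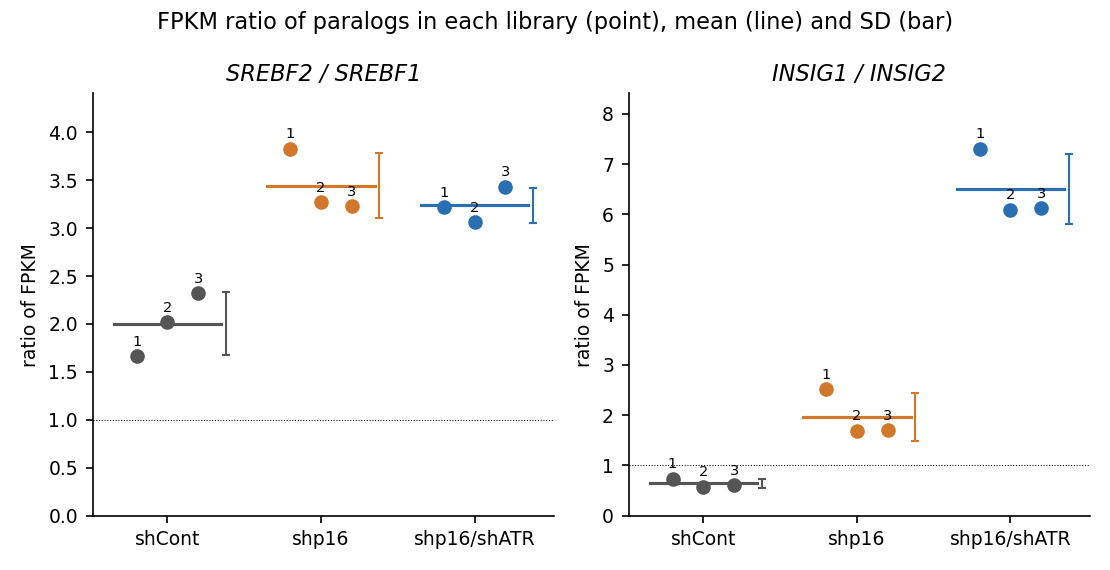
Ratio of FPKM (vertical axes, from 0) of SREBF2 to SREBF1 and of INSIG1 to INSIG2 in each library, with a line at the mean, a bar for the SD of 3 libraries and a dotted line at a ratio of 1. INSIG1 to INSIG2 lies below 1 in the 3 shCont libraries and above 6 in the 3 shp16/shATR libraries.

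Genes that act beside the 8 were read in 6 lists. The enzymes downstream of SREBPs moved most. Of 20 cholesterol synthesis enzymes, 13 rose and none fell in shp16 against shCont, 9 rose and none fell in shp16/shATR against shp16, and 18 rose and none fell in shp16/shATR against shCont, with median log2 fold changes of 0.59, 0.46 and 1.16. Over all genes tested, 7.23%, 2.73% and 10.9% were called higher. HMGCS1, which makes the precursor of mevalonate, rose by 1.39 and CYP51A1, lanosterol demethylase, by 1.34 in the first comparison (adjusted p 0.000344 and 0.0029 in edgeR). TM7SF2, a sterol reductase, rose by 2.01 and FDPS, which makes farnesyl diphosphate, by 0.97 in the second (adjusted p 0.00116 and 0.0106). TM7SF2 and SQLE rose by 2.62 and 1.74 in the third (adjusted p 3.59e-05 and 2.13e-06). TM7SF2, CYP51A1 and FDPS had the lowest levels of this list. Their mean CPM was 2.23, 3.39 and 7.07 in shCont and 13.9, 10.1 and 22.3 in shp16/shATR. Of 11 fatty acid synthesis enzymes, 8, 3 and 7 rose and none fell, beside the same shares of all genes, with medians of 0.51, 0.16 and 0.79. FASN and ACACA, the fatty acid synthase and the carboxylase that supplies it, rose by 0.79 and 0.78 in shp16 against shCont (adjusted p 0.00151 and 0.0186), and ACSS2 and SCD by 0.72 and 0.71 in shp16/shATR against shp16 (adjusted p 0.00142 and 0.0361). ACSS2 and FASN rose by 1.29 and 1.13 in shp16/shATR against shCont (adjusted p 4.01e-06 and 8.23e-05).

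The lists of machinery around SCAP and the SREBPs had calls in both directions. Their counts are to be read beside the 14.8%, 6.22% and 23.6% of all genes called in either direction in the 3 comparisons. Of 12 genes of ER retention and turnover, none rose and 1 fell in shp16 against shCont, none rose and 1 fell in shp16/shATR against shp16, and 1 rose and none fell in shp16/shATR against shCont, with medians of -0.07, 0.10 and 0.07. These were AUP1 (-0.53), ERLIN1 (-0.54) and VCP (0.41). Of 14 COPII coat and Golgi factors, which carry and anchor the SCAP-SREBP complex, 1 rose in the first comparison (SEC23B, 0.39), none passed in the second, and SEC31A rose by 0.51 and PAQR4 changed by -0.84 in the third. Of 13 nuclear partners and turnover factors, SP1 (0.64) and FBXW7 (0.57) rose and GSK3A (-0.49) fell in the first, MED15 (-0.50) fell in the second, and 2 rose and 3 fell in the third, led by SP1 (0.74) and MED15 (-0.59).

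Among 17 genes of lysosomal cholesterol egress and sterol transfer, the list nearest to NPC1, 1 rose and 2 fell in shp16 against shCont, 2 rose and 1 fell in shp16/shATR against shp16, and 3 rose and 2 fell in shp16/shATR against shCont, where 14.8%, 6.22% and 23.6% of all genes were called. Their medians were -0.01, 0.00 and -0.04. GPR155, a lysosomal cholesterol sensor, changed by -0.96 in shp16 and by -0.89 in shp16/shATR, each against shCont (adjusted p 0.000453 and 0.000475 in edgeR). LIPA, the lysosomal lipase that frees cholesterol from LDL esters, rose by 0.43 and STARD3, a sterol transfer protein of late endosomes, changed by -0.53 in shp16/shATR against shp16 (adjusted p 0.0333 and 0.0318). Comparisons that share a group share its libraries, so their values are given side by side and not as separate support.

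**Figure D5:**
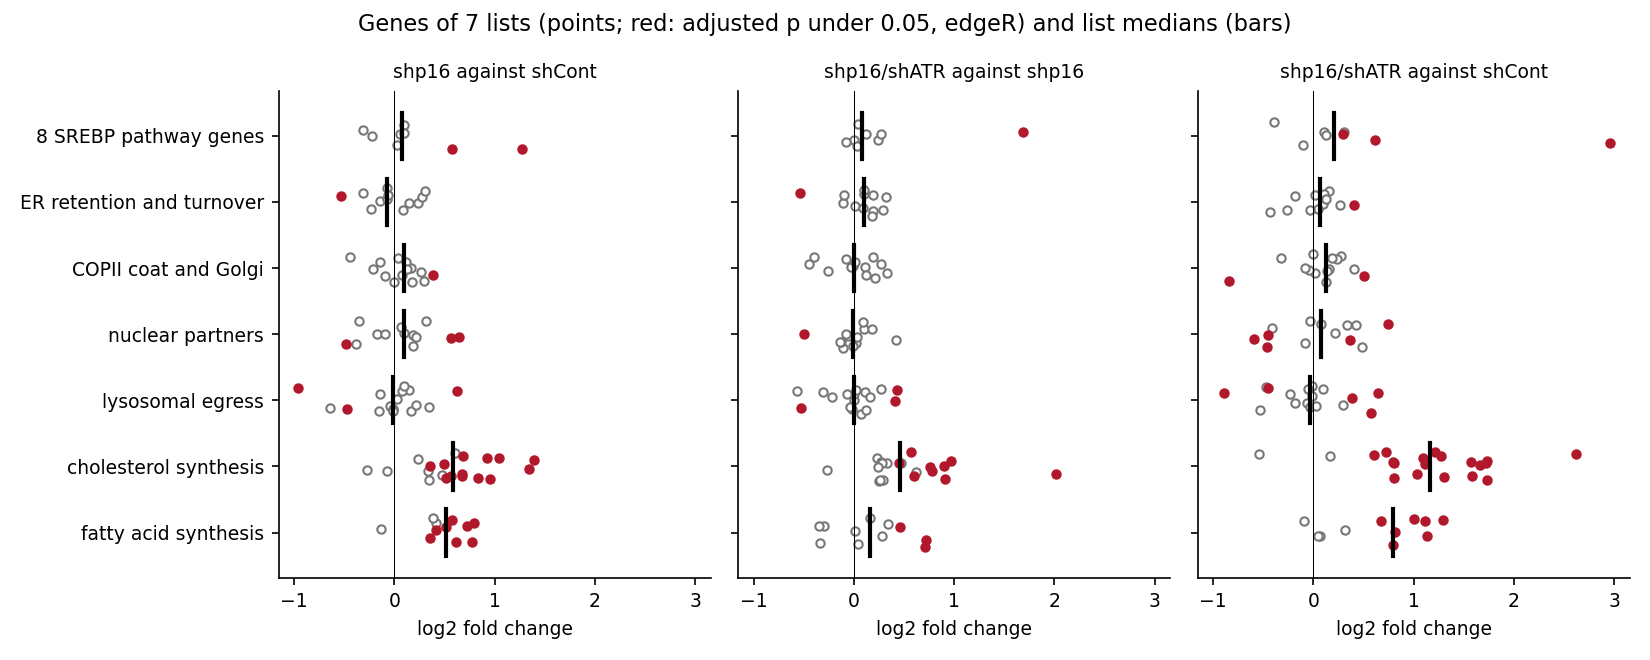
Log2 fold change (horizontal axes) of every tested gene of 7 lists in the 3 comparisons, with a bar at each list's median and red points where the edgeR adjusted p is under 0.05. The enzymes of cholesterol synthesis lie to the right of 0 with medians of 0.59, 0.46 and 1.16, whereas the machinery lists centre near 0 and INSIG1 is the far right point of the 8 genes.

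The genes most alike each of the 8 in level over the 9 libraries were sought among 10729 genes with a mean of at least 5 CPM, by Pearson's r of log2 CPM. These values are descriptions, since the libraries form 3 groups and share the differences in GC content described above. INSIG1 was most like ACSS2 (0.997), DHCR7 (0.994) and CAV1 (0.994), the first an enzyme that activates acetate and the second the last reductase of cholesterol synthesis. SREBF2 was most like CSPG4, MAGEC1 and CTBP2 (0.994 each). MBTPS1 was most like RAB21, REEP3 and ZNF620 (0.990 to 0.992), and MBTPS2 was most like IARS2, PCGF5 and SLC26A2 (0.984 to 0.990). NPC1 had MEX3C and MTMR3 among those most like it (0.984 and 0.982), and SREBF1 was most like TSTD1, PDLIM7 and SEC61B (0.977 to 0.982). SCAP was most like RRBP1, PSMC1 and PTRF (0.974 to 0.977), and INSIG2, with the lowest values, was most like ANAPC4, LINC00473 and BET1 (0.935 to 0.957). Between the 8 genes themselves, r was 0.85 for INSIG1 with SREBF2, 0.89 for INSIG1 with MBTPS1 and -0.64 for INSIG1 with INSIG2.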

How the data were processed

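RNA from 9 SKMEL28 libraries was sequenced with a NEBNext kit. The submitters' processing notes name STAR 2.6.1, DESeq2 2 and GRCh38, without roles. The coordinates in the tables are not those of GRCh38, however: of 45342 gene identifiers matched to GENCODE v29, 261 had the same start and end. The counting program and its strand setting are not given in the sources used here. The authors deposited raw read counts per gene with no normalization. The authors also deposited FPKM, which are those counts divided by gene length and library total.

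Counts were normalized by TMM, filtered with filterByExpr and tested in edgeR 4.0.16 (R 4.3.3) by quasi-likelihood, with 1 coefficient per group, all 9 libraries in a single fit and Benjamini-Hochberg adjustment over 15776 genes at 0.05. FPKM served for levels, ratios and alternatives in limma 3.58.1. DESeq2 1.42.0 was another alternative. In simulated data the test called 135 of 200 genes changed by 1 on the log2 scale (67.5%, shp16 against shCont, 15434 genes). It also called 18 genes that had not been changed. The simulated counts held neither the libraries that stand apart nor a trend with GC content, so they do not show how the test behaves with these. The 3 count columns of shp16/shATR share a name, so these libraries are lettered a, b and c. Scaled to FPKM, they matched the FPKM of replicates 1, 2 and 3 in that order, within a relative difference of 3.3e-07. No 2 libraries of the same group were duplicates: all pairs within a group differed by more than sampling noise. Pairs across groups were not compared in this way.

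The 8 genes, the 6 lists and the tests were chosen with earlier results of these data known. Named genes are the 8 members, CDKN2A and ATR, up to 2 called genes of largest change per list and comparison, and the 3 genes most like each member. GSK3A was named in addition, after its value was seen. GRAMD1B was not tested. SPRING1 was not tested under that symbol, but its list holds the same gene under its older symbol, C12orf49, which was tested. Of the genes this rule names, 2 are not reported here. Figures were drawn with matplotlib 3.10.9.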

Additional observations from a re-analysis of the deposited data

How the results depend on the processing

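INSIG1 was called in each of 21, 20 and 20 alternatives, with log2 fold changes of 1.18 to 1.30, 1.64 to 1.72 and 2.83 to 2.98 in shp16 against shCont, in shp16/shATR against shp16, and in the comparison of shp16/shATR with shCont. SREBF2 was called in 20 of 21 and in 20 of 20 alternatives in the comparisons with shCont. Of 488 values of the 8 genes under alternatives, 441 kept direction and call, 13 lost the call, 14 gained it and 20 turned in direction. Deviations of same-numbered libraries correlated between -0.30 and 0.29, and those of differently numbered libraries between -0.37 and 0.43. With 3 libraries a group, these values cannot show whether the replicate numbers of the labels pair the samples. With the replicate number as a block in edgeR, on the libraries of shCont and shp16 alone, 423 genes were called in shp16 against shCont. Of the 8 genes 1 was called, INSIG1 (adjusted p 0.015 in edgeR), and SREBF2 was not (adjusted p 0.0713). The same libraries with no block gave 2 of the 8 (SREBF2 at 0.0254) and 1186 genes, and all 9 libraries gave 2 and 2339. The block on log2 FPKM in limma left 2, 1 and 2 of the 8 called. Fitting only the groups compared gave 3 called of 8 in shp16/shATR against shp16 in place of 1. Without the first shCont and first shp16 libraries, chosen after seeing the data, 4, 4 and 5 were called. Leaving out each library in turn gave 2 to 3, 1 to 3 and 2 to 4, the highest without shCont replicate 1 (and, in the last, also without shp16 replicate 1). Over all genes the calls ranged from 423 to 5264, 292 to 4304 and 2354 to 7130, beside 2339, 981 and 3724.

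The values that turned in direction were small, apart from those of MBTPS2. In shp16 against shCont, MBTPS1 was at -0.0065 and MBTPS2 at -0.028 with upper-quartile normalization, and MBTPS1 was at -0.011 once trends with GC content and gene length were taken out, another choice made after seeing the data. Without both libraries that stand apart MBTPS1, MBTPS2 and NPC1 were at -0.013, -0.29 and -0.019. Leaving out single libraries gave -0.014 to 0.091 for MBTPS1, -0.19 to 0.17 for MBTPS2 and -0.052 to 0.17 for NPC1. In shp16/shATR against shp16, SCAP was at -0.0093 with no filter on low counts and between -0.049 and 0.092 with single libraries left out, INSIG2 was between -0.23 and 0.019, and NPC1 was at -0.0035 without both libraries. In the comparison of shp16/shATR with shCont, SREBF1 and NPC1 were at 0.013 and -0.023 without both libraries, and between -0.19 and 0.015 and between -0.019 and 0.20 with single libraries left out. The cause was not tested. Calls within the 6 lists of neighbouring genes moved by over 1.5 times in 134 of 366 cases. Among the cholesterol synthesis enzymes they ranged from 5 to 18, 5 to 17 and 17 to 20 of 20.

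With 3 libraries a group, not stated to be separate cultures, the spread between experiments is not measured. Every member had at least 518 counts in each library. Protein levels, SREBP cleavage and sterol levels were not analysed here.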
